A study of Homo sapiens with 2 samples.

Results

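The islet hormone genes are described here across single cells of a human stem cell differentiation. They are INS, GCG, SST, PPY, PYY, IAPP and UCN3, which were picked by symbol and are 7 of the 33694 genes counted. All 7 had UMIs (unique molecular identifiers, each marking 1 captured RNA molecule) in both libraries. The cells came from iSOX9KO, a clonal line made from the human embryonic stem cell line Mel1-INS-GFP, in which 1 INS allele carries a GFP reporter. In that line doxycycline (DOX) switches on Cas9 from the AAVS1 locus, while guide RNAs against SOX9, a transcription factor of pancreatic progenitors and ducts, are expressed constantly. The 1 library labelled DOX received 2 µg/ml doxycycline from day 12 of differentiation, and the 1 library labelled no DOX came from the same line, with the same cassettes, without the drug. According to the methods, GFP-high cells were sorted and reaggregated into clusters during the protocol, so the INS reporter was itself a gate on the cells that reached the libraries. No replicate of either condition was measured, so differences between the libraries carry no test, and every interval below covers counting error only.

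Each endocrine cell type of the islet is known for 1 main hormone. Beta cells release insulin (INS) together with amylin (IAPP), peptides stored in the same granules, of which insulin lowers blood glucose. Alpha cells release glucagon (GCG), which raises glucose, delta cells release somatostatin (SST), which restrains both neighbours, and gamma cells release pancreatic polypeptide (PPY). Peptide YY (PYY) belongs to the same family as PPY and is made early in islet development. Urocortin 3 (UCN3) is a late marker of beta cells in mice and is found in both alpha and beta cells in humans. Stem cell protocols are known to pass through polyhormonal cells, which hold RNA of several of these hormones at once.

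The genes lie apart in the genome (GRCh38, GENCODE annotation) except for one pair. INS was at chr11:2159779-2161221 on the minus strand, with 3 exons in its canonical transcript, and 246 of its 465 exon bases also lie in exons of the readthrough gene INS-IGF2. GCG was at chr2:162142882-162152404, SST at chr3:187668912-187670394, IAPP at chr12:21354959-21379980 and UCN3 at chr10:5364966-5374692. PPY and PYY are neighbours on the minus strand of chromosome 17, with 10256 bases between the intervals of the genes.

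The 250 bases upstream of the start of INS, GCG, SST and IAPP are printed from RefSeq (GRCh38.p14), 5′ to 3′ on the strand of each gene, because these genes stood highest in 3 different cell classes and, for INS and IAPP, are hormones of the same cell. Capitals mark TAAT, the core of homeodomain binding sites, on either strand.
INS: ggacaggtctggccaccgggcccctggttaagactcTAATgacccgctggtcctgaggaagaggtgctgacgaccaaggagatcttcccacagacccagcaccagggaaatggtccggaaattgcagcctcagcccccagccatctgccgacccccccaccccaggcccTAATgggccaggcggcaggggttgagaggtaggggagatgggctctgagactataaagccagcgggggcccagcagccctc
GCG: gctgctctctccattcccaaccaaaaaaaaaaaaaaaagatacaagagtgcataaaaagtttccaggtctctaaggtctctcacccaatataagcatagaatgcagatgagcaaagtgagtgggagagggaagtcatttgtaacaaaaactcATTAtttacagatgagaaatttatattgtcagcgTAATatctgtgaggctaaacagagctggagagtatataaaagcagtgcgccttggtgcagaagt
SST: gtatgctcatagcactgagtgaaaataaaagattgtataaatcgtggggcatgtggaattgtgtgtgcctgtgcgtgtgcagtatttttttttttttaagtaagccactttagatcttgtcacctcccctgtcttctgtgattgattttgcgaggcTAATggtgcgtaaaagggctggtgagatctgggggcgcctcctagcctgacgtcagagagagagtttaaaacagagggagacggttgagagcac
IAPP: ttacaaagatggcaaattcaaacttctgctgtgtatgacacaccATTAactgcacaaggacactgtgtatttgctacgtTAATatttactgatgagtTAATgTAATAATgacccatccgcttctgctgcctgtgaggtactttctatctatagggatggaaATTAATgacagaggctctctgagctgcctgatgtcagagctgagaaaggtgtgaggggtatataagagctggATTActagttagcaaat
These stretches lie at chr11:2161210-2161459 for INS, chr2:162152248-162152497 for GCG, chr3:187670395-187670644 for SST and, on the plus strand, chr12:21372652-21372901 for IAPP, where the second of 2 listed starts was used. TAAT was found 2 times in the INS stretch, 214 and 81 bases before the start, and 2 times in that of GCG, 98 and 64 bases before it. The SST stretch held it 1 time, 94 bases before the start, and the IAPP stretch 8 times, with some matches overlapping. It was absent from the stretches of PPY and PYY, and 47.4% of the 35116 promoters in the table held it. The full cyclic AMP response element TGACGTCA was present in the SST stretch, 47 bases before the start, and in 1.65% of all promoters. TGCTGA, part of the binding site of MAF factors, was present in the INS stretch, 186 bases before the start, and in 14.0% of promoters. These matches are descriptions of letters, searched on both strands, and no binding was measured.

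The libraries held 30288 (no DOX) and 31817 (DOX) barcodes of at least 500 UMIs. At 2000 UMIs or more, 28671 and 30579 barcodes remained, of which the doublet caller Scrublet removed 27.3% and 27.1%, leaving 20847 and 22299 cells with medians of 14348 and 12892 UMIs. Among the kept cells 130 barcodes occurred in both libraries. In the library labelled DOX the RNA of SOX9 was no lower: it had 3.79 CPM (UMIs of the gene for each 1000000 UMIs) there against 3.01 (log2 ratio 0.33, interval 0.21 to 0.46), and most of its UMIs came from duct-like cells. The log2 ratio of SOX9 was 0.16 (0.01 to 0.31) in duct-like cells and -0.65 (-1.35 to 0.03) in beta-like cells, the latter from 44 and 33 UMIs. For this line the study reports editing of the SOX9 locus and less SOX9 protein under DOX, from assays other than these libraries. Cas9 cuts need not lower the RNA of a gene. The counts alone do not show the deletion, and so each library is called by its label alone. The cells were clustered without the 7 genes and INS-IGF2, so that no hormone gene entered the clustering. Then 6 clusters were named from marker lists that hold none of them. These lists were chosen with the study's own marker lists and earlier results of these data known. The names may therefore not be independent of the hormones. Beta-like cells were 33.4% (no DOX) and 44.1% (DOX) of the cells, alpha-like 23.4% and 17.8%, delta-like 12.0% and 8.25%, beta cell progenitor-like 25.3% and 23.8%, proliferating progenitor-like 2.30% and 2.19%, and duct-like 0.734% and 0.794%. For the alpha-like, delta-like and beta cell progenitor-like classes of this clustering the direction is opposite to that in the study. The study reports that DOX raised the share of cells in these populations, from its own clusters and counts. It saw no rise of glucagon cells by flow cytometry and cautions that few replicates limit statistics on such shares. For the progenitors the direction depended on the clustering. In a finer clustering, a smaller cluster that kept this name had 514 of 20847 (no DOX) and 818 of 22299 (DOX) cells. The reason for the difference from the study was not tested. A further cluster with a median of 45.7% mitochondrial UMIs stayed unnamed. Levels are compared between genes in CPM without scaling by length, since a UMI counts a molecule and not a length of it.

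The 7 genes took 18.5% (no DOX) and 17.3% (DOX) of all UMIs, 36.4% and 34.0% in delta-like cells, and 2.12% and 1.79% in duct-like cells. INS stood first in level and SST second over all cells, followed by GCG, PYY, IAPP, PPY and UCN3 in both libraries. The plot of levels by class shows that each gene had its highest named class in common between the libraries.

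**Figure D1:**
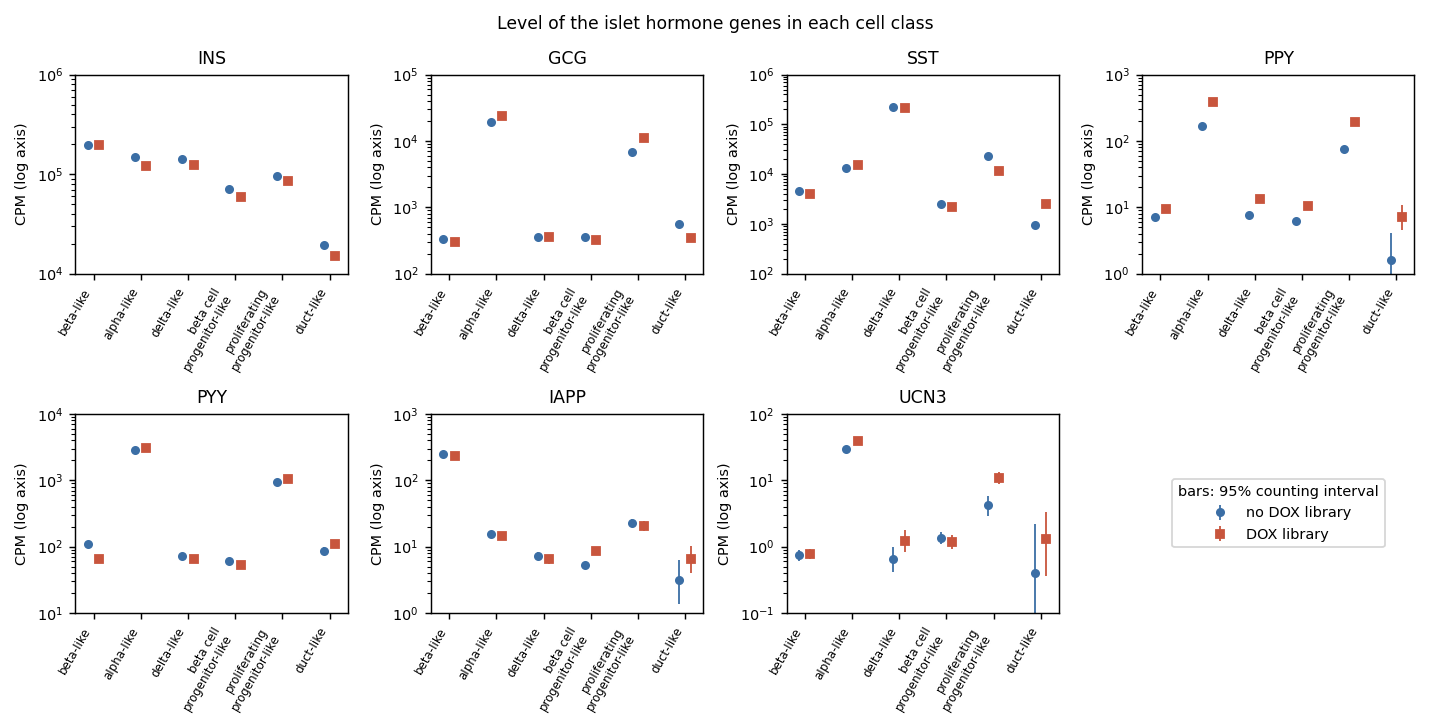
Level of each hormone gene (CPM, log axis) in the 6 named cell classes of the library labelled no DOX and the library labelled DOX; bars are 95% counting intervals. GCG, PPY, PYY and UCN3 stood highest in alpha-like cells, SST in delta-like cells, and INS and IAPP in beta-like cells, in both libraries.

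Duct-like cells were assumed to make none of these hormones, and their values serve here as the background. For INS the assumption is weaker, since the protocol sorted cells on the INS reporter, and it was not tested. INS was at 19585 CPM in the 153 duct-like cells of the no DOX library and 14940.4 CPM in the 177 of the DOX library, which is 13.2% and 10.3% of its level over all cells. GCG there was at 12.2% and 7.39% of its level over all cells, and PYY at 12.2% and 18.6%. SST differed between the libraries, at 3.11% (2.99 to 3.24) and 11.1% (10.9 to 11.4). The percentages thus differed between genes within a library. The sums were set in part by few cells: a single duct-like cell of the DOX library had 11.2% of its UMIs from SST, against a median of 0.0816% (0.0879% in the no DOX library). The highest cell held 50.9% and 51.9% of the duct-like GCG UMIs, 5.55% and 48.7% of those of SST and 10.2% and 7.25% of those of INS. Without it the duct-like level was 6.05% and 3.59% of the level over all cells for GCG, 2.96% and 5.78% for SST, and 12.1% and 9.66% for INS. The medians were alike, with 1.02% and 0.990% of a duct-like cell's UMIs from INS, and 0.0130% and 0.0144% from GCG. With called doublets kept and the cells clustered again, the duct-like levels were 42.1% and 35.0% of the level over all cells for INS, 62.0% and 32.2% for GCG, and 41.2% and 18.1% for SST. Whether the remaining high cells were undetected doublets was not tested.

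**Figure D2:**
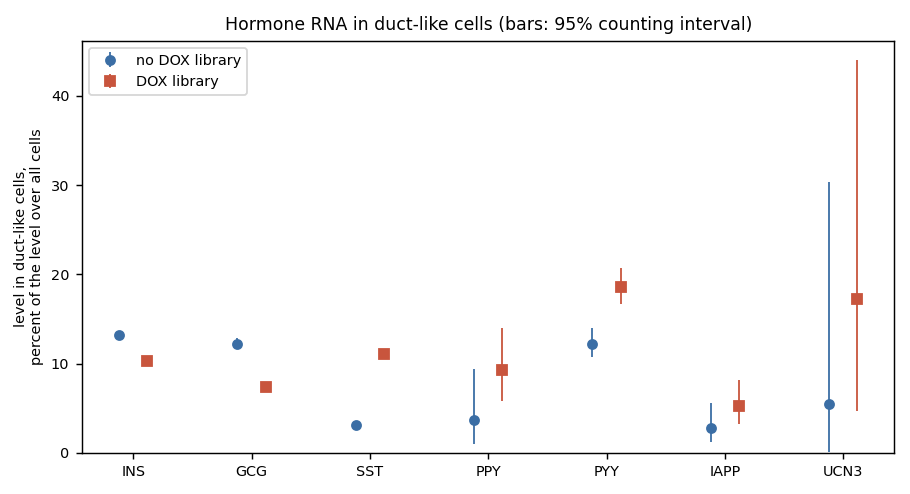
Level of each hormone gene in duct-like cells as a percent of its level over all cells of the same library, with 95% counting intervals. INS lay at 13.2% and 10.3%, while SST lay at 3.11% in the no DOX library and 11.1% in the DOX library.

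Among INS, GCG, SST and PPY, INS had the most UMIs in 87.6% (no DOX) and 90.0% (DOX) of all cells. INS also led in 100% and 99.4% of duct-like cells, which serve as the background. It reached 194873 CPM (no DOX) and 194080 CPM (DOX) in beta-like cells, and a beta-like cell gave a median of 19.2% of its UMIs to INS in both libraries. It was also high in the classes named for other hormones. Alpha-like cells were at 149131 and 119487 CPM, and delta-like cells at 142773 and 122895 CPM, so that the order of these classes was not the same in the libraries. That order rests on the denominator and the clustering. In CPM of the UMIs outside the hormone and mitochondrial genes, INS was at 249601 and 208576 in delta-like cells and at 203982 and 161869 in alpha-like cells. The finer clustering had 2 clusters with high GCG, on either side of the delta-like cluster in INS (142785 and 123104 CPM). The one that kept the alpha-like name (2850 and 2242 cells, GCG at 19509 and 23250.2 CPM) had 181343 and 144668 CPM of INS, and an unnamed one (1922 and 1693 cells, GCG at 19106 and 25739.5 CPM) had 89542 and 78178 CPM. Proliferating progenitor-like cells were at 95611 and 84458 CPM and beta cell progenitor-like cells at 71193 and 59532 CPM. The spread inside the classes was wide: the middle 50% of alpha-like cells lay between 6.08% and 22.0% of UMIs in the no DOX library and between 5.14% and 17.3% in the DOX library. The lowest cell of any class still had 0.539% (no DOX) and 0.509% (DOX) of its UMIs from INS, and both values lie below the duct-like medians. The sort on the INS reporter can set how many cells had high INS. INS UMIs outnumbered INS-IGF2 UMIs 15204 to 1 and 14055 to 1. How reads in the shared exons were counted was not checked, and reads compatible with both genes may be missing from both counts.

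GCG, the alpha cell hormone, was at 19056 CPM (no DOX) and 24109 CPM (DOX) in alpha-like cells. Proliferating progenitor-like cells followed, with 6826 and 11019 CPM. The remaining named classes lay between 295 and 555 CPM, and their order differed between the libraries, with duct-like cells among them at 555 (526 to 585) and 342 (322 to 363) CPM. A GCG UMI was detected in 90.5% and 91.7% of beta-like cells, but also in 83.0% and 93.2% of duct-like cells at median depths of 14225 and 14762 UMIs, so that detection alone was at the background. A line was therefore drawn at more than 10 of 2000 UMIs after each cell was thinned to 2000. Above it were 24.9% (23.6 to 26.1) of alpha-like cells in the no DOX library and 29.2% (27.8 to 30.6) in the DOX library, which were 1213 and 1156 cells. Of duct-like cells 1.96% and 0.565% were above it, and of beta-like cells 1.06% and 0.417%. The alpha-like class thus held a minority of cells with much GCG: those above the line gave a median of 5.86% and 6.67% of their UMIs to it, while the median over the class was 0.0387% and 0.0510%, against 0.0130% and 0.0144% in duct-like cells.

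**Figure D3:**
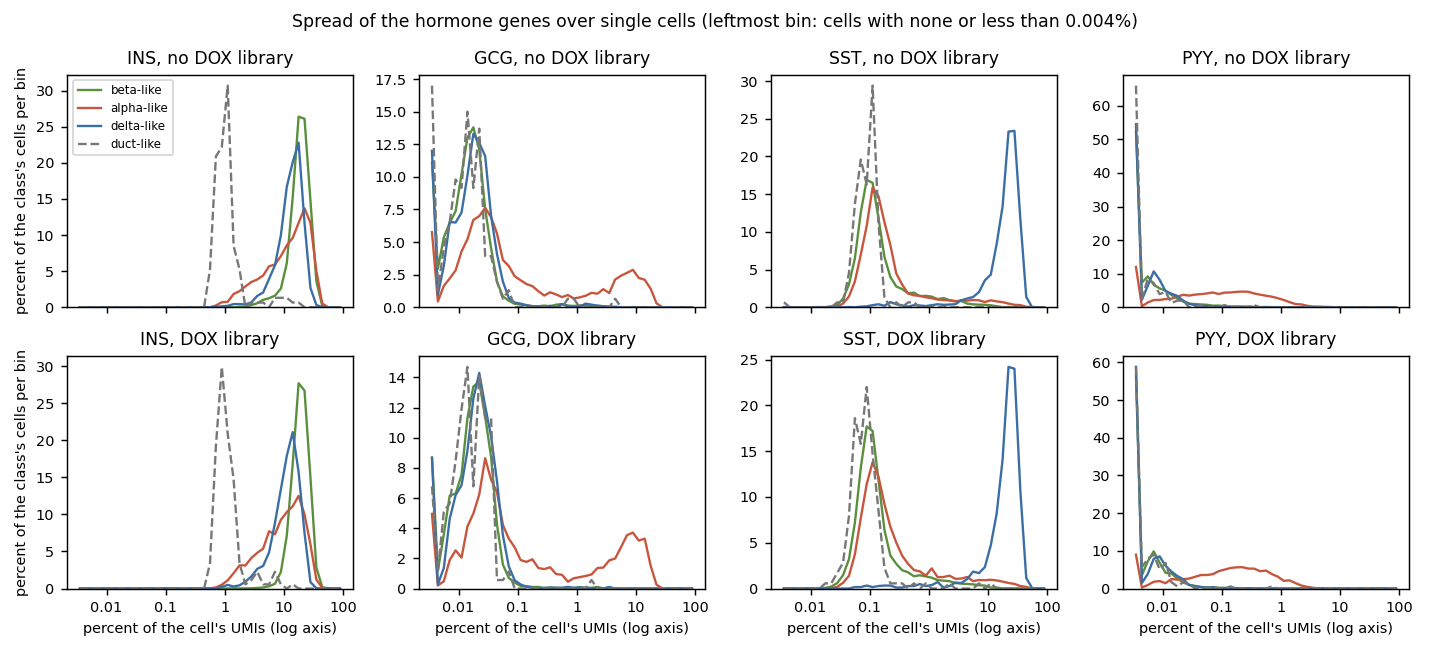
Percent of a cell's UMIs taken by INS, GCG, SST and PYY (log axis) against the percent of each class's cells per bin, for beta-like, alpha-like, delta-like and duct-like cells of each library. GCG in alpha-like cells spread over a low group near the duct-like cells and a high group (medians of 5.86% and 6.67% above the line), while SST in delta-like cells formed 1 group with medians of 22.2% and 22.0%.

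The alpha-like cells above the GCG line were compared with the other alpha-like cells of the same library, in CPM of the UMIs outside the 7 genes. This sets cells of 1 library against each other and has no replicate. Among all genes tested at 10 CPM or more, 3.65% (no DOX) and 2.66% (DOX) differed by over 1.5 fold in either direction. Of 11 alpha-like markers, 2 were higher by that fold in both libraries, IRX1 and C5orf38. IRX1, a homeobox gene of alpha cells, was at 51.9 against 17.6 CPM in the no DOX library and 53.7 against 17.7 in the DOX library (log2 1.56 and 1.60). C5orf38, a neighbour of the alpha cell regulator IRX2, had log2 ratios of 0.84 and 0.69. KLHL4 was lower in both libraries (-0.69 and -0.66), and DPP4 (-0.37 and -0.78) was past the fold in the DOX library. PDX1, a regulator of beta cells and of INS, was lower in the GCG-high cells (-1.25 and -0.96), and it was the 1 of 9 lineage regulators with at least 10 CPM that was past the fold in each library. Of the 6 prohormone processing genes, 2 were lower by over 1.5 fold in the no DOX library and 0 in the DOX library. They were PAM, the enzyme that amidates peptides (log2 -0.89 and -0.48), and PCSK1, a prohormone convertase (-0.66 and -0.58). The other 4 had log2 ratios between -0.19 and 0.38. Of the 6 other hormone genes, 1 passed the fold upward and 1 downward in each library. PPY was higher in the GCG-high cells (0.87 and 1.16) and UCN3 lower (-1.08 and -0.76). PPY did not rise steadily with GCG over 4 bins of equal size from the lowest to the highest GCG share. It was at 227, 84.1, 102 and 257 CPM of the UMIs outside GCG in the no DOX library, and at 435, 145, 297 and 664 in the DOX library. Few cells can set these PPY values, as the top 1% of alpha-like cells held 62.0% and 50.2% of the class's PPY UMIs. INS had ratios of -0.23 and -0.24, PYY 0.00 and 0.08, and SST 0.35 and -0.14, which differ in sign between the libraries.

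**Figure D4:**
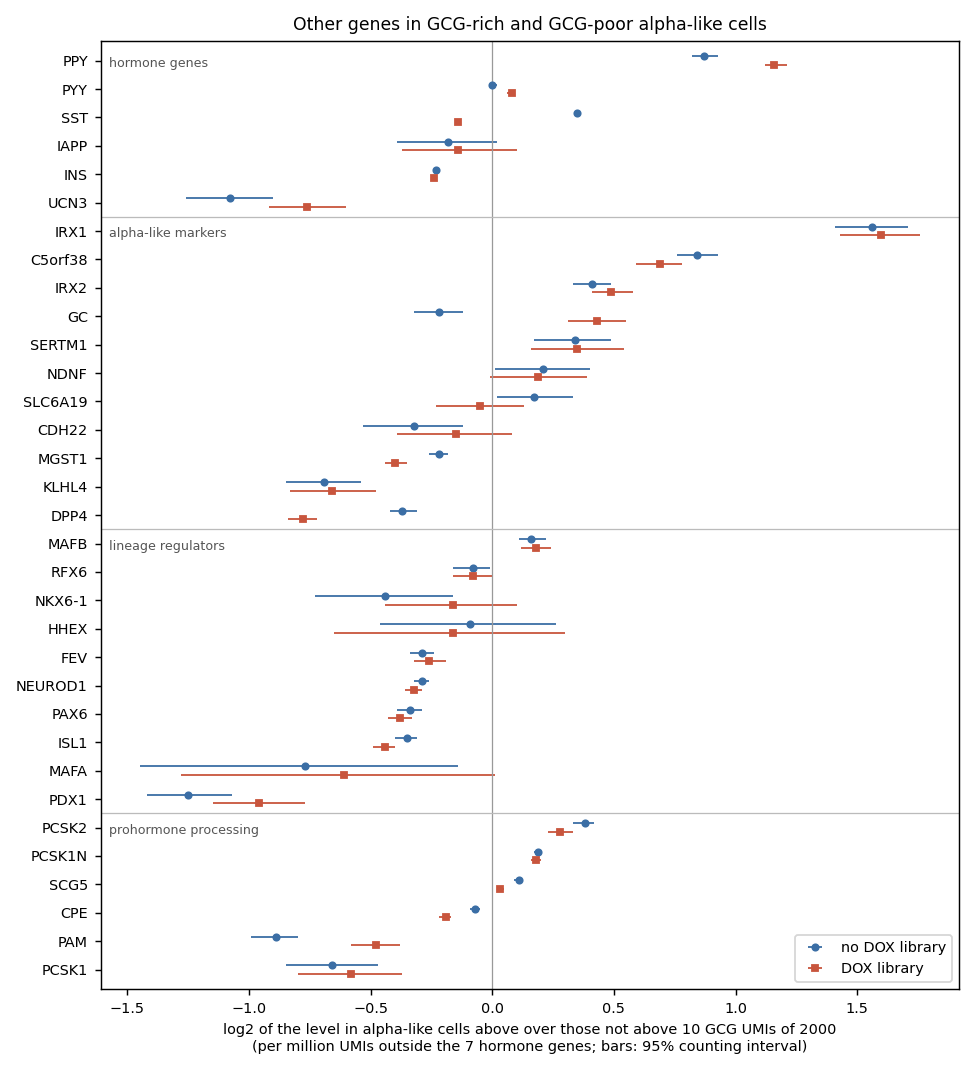
Log2 ratio of CPM of the UMIs outside the hormone genes, alpha-like cells above the GCG line over the other alpha-like cells, for the genes of 4 lists in each library, with bars for 95% counting intervals. IRX1 had the highest ratios (1.56 and 1.60) and PDX1 was at -1.25 and -0.96.

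SST, the delta cell hormone, was at 221268 CPM (no DOX) and 216857 CPM (DOX) in delta-like cells. This was above the level of INS in beta-like cells. Of delta-like cells 97.5% (96.8 to 98.1) and 97.8% (97.0 to 98.4) were above 10 of 2000 UMIs, against 0.654% and 2.82% of duct-like cells. SST was not kept to that class: it was at 13146 and 15064 CPM in alpha-like cells, of which 17.4% and 21.6% were above the line. In beta-like cells it was at 4541 and 4059 CPM, with 13.1% and 10.8% above the line. Most cells of these classes lay near the duct-like cells, as their median shares were 0.149% and 0.155% in alpha-like and 0.114% and 0.108% in beta-like cells. In the unnamed cluster 56.9% and 53.6% of cells were above the line, at median depths of 2892 and 2902 UMIs. Its median SST shares were 0.638% and 0.571%, against 0.0879% and 0.0816% in duct-like cells. Thinning does not change the share of free RNA in a cell, and its part in these values was not tested. Proliferating progenitor-like cells had 22920.3 CPM in the no DOX library and 11783 CPM in the DOX library, from 479 and 489 cells.

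PYY and PPY, neighbouring genes of one peptide family, had their highest level in alpha-like cells. PYY was at 2822 CPM (no DOX) and 3055 CPM (DOX) there, with medians of 0.0805% and 0.131% of a cell's UMIs, against 0 in the median duct-like cell. Above 10 of 2000 UMIs were 15.4% and 17.9% of alpha-like cells. PYY was at 110.1 and 64.2 CPM in beta-like cells and at 85.6 and 111 CPM in duct-like cells, but 1 cell held 52.5% and 54.6% of the duct-like PYY UMIs. Without the highest cell of each class, PYY was at 104 and 63.4 CPM in beta-like and at 41.1 and 50.9 CPM in duct-like cells. PPY was much rarer and was at 166 CPM (no DOX) and 379.9 CPM (DOX) in alpha-like cells. Proliferating progenitor-like cells followed with 75.6 and 194 CPM, and beta-like cells were at 7.06 and 9.56 CPM. No UMI of PPY was seen in 70.7% and 59.7% of alpha-like cells. The top 1% of alpha-like cells, 49 and 40 cells, held 62.0% and 50.2% of the class's PPY UMIs, and the highest alpha-like cells gave 7.75% and 18.7% of their UMIs to PPY. No cluster had PPY as its leading gene at either resolution.

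IAPP, the partner of insulin, was at 251 CPM (no DOX) and 229 CPM (DOX) in beta-like cells. Alpha-like cells were at 15.7 and 14.3 CPM, and duct-like cells at 3.15 (1.36 to 6.22) and 6.56 (4.01 to 10.1) CPM. In beta-like cells INS UMIs outnumbered IAPP UMIs 777 to 1 and 846 to 1. IAPP was also unevenly spread, with no UMI in 75.6% and 73.3% of beta-like cells and 43.4% and 39.9% of its UMIs in the top 1% of them. When beta-like cells were ranked by the INS share of their UMIs and divided into 4 bins of equal size, IAPP was at 86.7, 151, 335 and 778 CPM of the remaining UMIs from the lowest bin to the highest in the no DOX library. In the DOX library the bins were at 132, 177, 322 and 593 CPM. IAPP was thus higher in each higher bin of INS, in both libraries. SST went the other way over the same bins, from 7155 to 4269 CPM in the no DOX library and from 5553 to 4073 in the DOX library.

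UCN3 was the lowest of the 7 genes and was at 29.8 CPM (no DOX) and 38.7 CPM (DOX) in alpha-like cells. Beta-like cells had 0.739 (0.600 to 0.901) and 0.780 (0.648 to 0.931) CPM, and duct-like cells 0.394 and 1.31 CPM from 1 and 4 UMIs. Its beta-like level could not be told from the duct-like one at this depth. Within alpha-like cells no UMI was seen in 86.2% and 81.7%, and UCN3 was lower in the cells above the GCG line, as given above. It was also uneven between the finer clusters with high GCG. The one that kept the alpha-like name had 41.2 and 54.0 CPM of UCN3, and the unnamed one had 6.70 and 12.7 CPM.

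The cells were also read for several hormones at once. More than 10 of 2000 UMIs came from INS in 99.9% of all cells, but also in 96.1% and 94.9% of duct-like cells. A pair with INS at this line thus says nothing beyond the other gene. The INS share of such cells was still above that of duct-like cells, whose medians were 1.02% and 0.990%. Alpha-like cells above the lines of INS and GCG had medians of 10.4% and 8.36% of their UMIs from INS. Delta-like cells above those of INS and SST had 13.7% and 11.8%. The part of free RNA in these shares was not tested. The cells were then read for which of INS, GCG, SST and PPY had the most UMIs. INS led in 100% and 99.4% of duct-like cells, so a lead of INS was also at the background. GCG led in 0% of duct-like cells in both libraries and SST in 0% and 0.565%. INS led in 99.7% and 99.9% of beta-like cells and in 88.4% and 83.3% of alpha-like cells, where GCG led in 7.72% and 11.8% and SST in 3.79% and 4.82%. In delta-like cells SST led in 74.0% and 76.6% and INS in 26.0% and 23.3%. No delta-like cell was led by GCG (0 of 2492 and 0 of 1839 cells, which allows shares of up to 0.120% and 0.163% by a limit of 3 counts).

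GCG and SST were both above 10 of 2000 UMIs in 355 cells of the no DOX library, 1.70% (1.53 to 1.89), and in 320 of the DOX library, 1.44% (1.28 to 1.60). Most of these cells, 283 and 269, were alpha-like. Among alpha-like cells above the GCG line, 23.3% in both libraries were above the SST line, against 17.4% and 21.6% of the whole class. For PYY the corresponding shares lay close together: 15.4% and 18.2% of GCG-high alpha-like cells were above the PYY line, against 15.4% and 17.9% of all alpha-like cells. Of alpha-like cells above the SST line, 26.2% and 26.7% were above the PYY line. Cells above both lines had median depths of 14609 and 14258 UMIs for GCG with SST, beside 14918 and 14381 UMIs in the cells above the lines of INS and GCG.

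With lines set instead at the 99th percentile of the duct-like cells of each library, GCG and SST were both above in 1.71% (1.54 to 1.89) of no DOX cells and 0.861% (0.744 to 0.991) of DOX cells. Those lines rest on the highest 1 or 2 duct-like cells and were 13 and 2 of 2000 UMIs for GCG and 9 and 72 for SST, so these shares are not comparable between the libraries. Before doublets were removed, Scrublet had called 45.5% and 47.8% of the cells above both of these lines doublets. It had called 33.0% and 33.7% of those above the GCG line alone and 36.0% and 37.5% of those above the SST line alone. Scrublet was run with the hormone genes among its input, so these call rates are not independent of the hormones. Real cells with several hormones could have been removed as doublets. The part of remaining doublets in the shares of cells with several hormones was not tested.

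Between the libraries, PPY differed most among the 7 genes over all cells. It was at 42.9 CPM in the no DOX library and 77.8 CPM in the DOX library, a log2 ratio of 0.86 (0.83 to 0.89). Of the 6 members with at least 10 CPM, PPY alone was past 1.5 fold, where 0.516% of all genes tested were. In alpha-like cells PPY was again past the fold, with a log2 ratio of 1.19 (1.16 to 1.23), as 1 of 7 members where 0.636% of genes were. Left without the top 1% of cells, PPY in alpha-like cells was at 63.7 and 191 CPM (1.59, interval 1.53 to 1.64). In delta-like cells PPY was past the fold as 1 of 5 members (0.81), where 0.448% of genes were, at 7.55 and 13.3 CPM against 1.58 and 7.21 CPM in duct-like cells. PPY reached 10 CPM there only in the DOX library, so its place in this count depends on its higher level in that library. In beta-like cells 1 of 5 members was past the fold, PYY with a log2 ratio of -0.78, where 0.599% of genes were, at 110.1 and 64.2 CPM against 85.6 and 111 CPM in duct-like cells (41.1 and 50.9 CPM without the highest duct-like cell).

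The other hormone genes were within 1.5 fold in these 4 sets of cells wherever they had 10 CPM. INS had log2 ratios of -0.04 over all cells, -0.01 in beta-like, -0.32 in alpha-like and -0.22 in delta-like cells. SST was at 30859 and 22758 CPM over all cells (-0.44), while within delta-like cells its ratio was -0.03 and delta-like cells were 12.0% and 8.25% of cells. GCG was at 0.03 over all cells and 0.34 in alpha-like cells, of which there were 23.4% and 17.8%. With the named classes given equal weight, the ratios were 0.41 for GCG, -0.07 for SST and 1.22 for PPY, and those of PYY (-0.23 over all cells, 0.10 with equal weight) and IAPP (0.15 and -0.10) changed sign. UCN3 was at 0.08 over all cells and 0.37 in alpha-like cells. In the 479 and 489 proliferating progenitor-like cells 4 of 7 members were past 1.5 fold, where 1.20% of genes were. Their log2 ratios were 0.69 for GCG, -0.96 for SST, 1.36 for PPY and 1.39 (0.81 to 1.99) for UCN3, the last from 36 and 86 UMIs (4.19 and 10.9 CPM). UCN3 reached 10 CPM only in the DOX library, so its place in this count depends on its higher level there. INS (-0.18), PYY (0.16) and IAPP (-0.17) were within 1.5 fold. With 1 library per condition, the label and any difference between the differentiations or captures cannot be told apart.

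**Figure D5:**
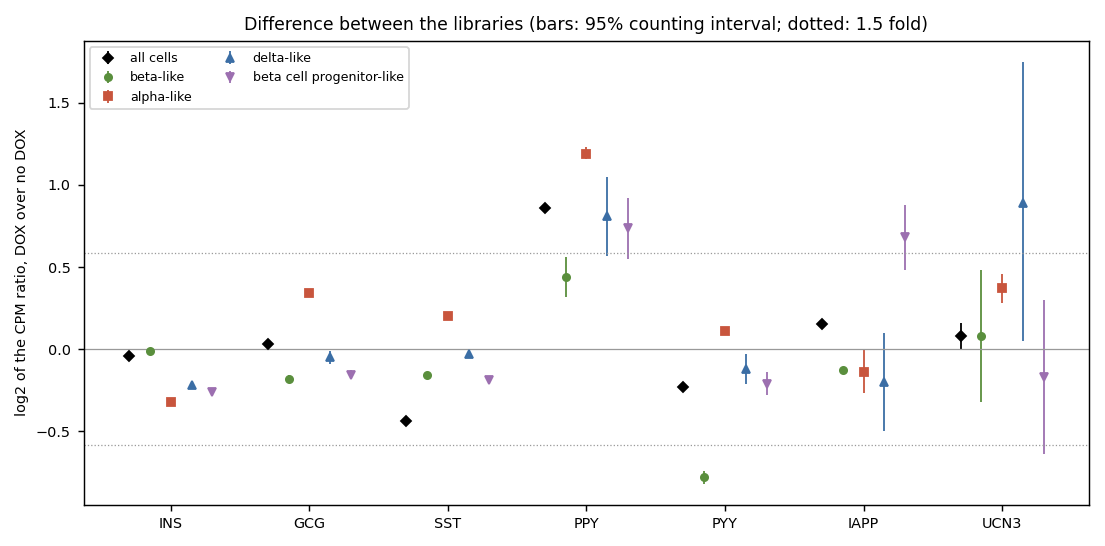
Log2 ratio of CPM, library labelled DOX over library labelled no DOX, for each hormone gene over all cells and in 4 classes; bars are 95% counting intervals and dotted lines mark 1.5 fold. PPY lay at 0.86 over all cells and 1.19 in alpha-like cells, while INS lay at -0.04 over all cells.

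The genes of the prohormone processing list moved little between the libraries, as did most genes tested. The 6 genes are PCSK1, PCSK2, CPE, PAM, SCG5 and PCSK1N. Of them, 0 were past 1.5 fold over all cells or in beta-like, alpha-like or delta-like cells, with log2 ratios between -0.19 and 0.19. In the same sets of cells 0.516%, 0.599%, 0.636% and 0.448% of all genes were past it, so these counts do not set the list apart. Of 11 lineage regulators, 1 was past the fold upward and 1 downward over all cells, where 0.516% of all genes were. MAFA, an activator of INS in mature beta cells, had a log2 ratio of 0.70 over all cells and 0.48 within beta-like cells, which were 33.4% and 44.1% of cells. HHEX, the delta cell regulator, had -0.64 over all cells and -0.13 within delta-like cells, which were 12.0% and 8.25% of cells. Of the regulators with at least 10 CPM, 0 of 9 were past the fold in beta-like cells and 0 of 9 in alpha-like cells. Of all genes 0.599% and 0.636% were past it there. In delta-like cells 1 of 10 was past it upward, NKX6-1 (0.61), a beta cell regulator, at 23.8 and 36.3 CPM, where 0.448% of all genes were.

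The genes most like each member were found by Pearson correlation of log2(CPM + 1) over 26 profiles, 13 finer clusters in each of the 2 libraries, among 11471 genes. The profiles share their libraries and free RNA, so these values are descriptions. Among the 3 genes most like GCG were PYY (0.977) and HMP19 (0.974), and among those most like PYY were GCG (0.977) and RP11-527L4.2 (0.962). PPY was most like KCNF1 (0.956), GCG (0.941) and AC006369.2 (0.927). INS was most like ACVR1C (0.970), SLC30A8 (0.953), which encodes the zinc transporter of insulin granules, and AIF1 (0.946). IAPP was most like SLC6A2 (0.918), SYNDIG1L (0.916) and EPHA8 (0.912), and its correlation with INS was 0.666. SST was most like FAM20A (0.936), EGR3 (0.911) and NPAS4 (0.906). Among those most like UCN3 were SLC6A4 (0.888), which encodes the serotonin transporter, and SERTM1 (0.887). GHRL, the epsilon cell hormone and the 1 marker of that cell type looked at, was at 28.9 and 17.6 CPM over all cells, and lists of acinar, fibroblast, endothelial and pluripotent markers summed to between 0.794 and 8.54 CPM.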

How the data were processed

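Single-cell RNA was measured in 2 libraries, 1 labelled no DOX and 1 labelled DOX. The authors deposited a matrix of UMI counts per gene and barcode for each library, and the counts are not normalized. The file headers name Cell Ranger 3.0.2, the submitters' processing notes name GRCh38, and the study's methods describe another counter, kallisto with bustools. Whether strand was used in counting is not given in the sources used here. The total depth was 550240855 and 520849221 UMIs.

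The members and gene lists were chosen with earlier results of these data known. A minimum of 2000 UMIs was set for a barcode, and doublets called by Scrublet in each library were left out. Scrublet was run on all genes, the hormone genes included. Following the study's methods, counts were log-normalized, variable genes chosen, total UMIs and mitochondrial percent regressed out, and cells clustered on 50 principal components with 3 neighbours per library (a rebuilt bbknn) by Leiden at resolutions 0.2 and 0.5 in scanpy 1.11.5. Here the 7 hormone genes and INS-IGF2 were left out of that step. To be named, a cluster needed an average log2 fold of 1 or more over the marker list of a class. It also needed 3 or more of these markers to be raised that much. Some of them had to be among its 10 leading genes, with no other class having more there. These names are rebuilt and can differ from the study's.

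Levels are summed UMIs in CPM with exact Poisson 95% intervals. Ratios carry exact conditional binomial intervals and shares Clopper-Pearson intervals, and a share of 0 a limit of 3 counts. All cover counting error only. Shares of cells above a line were taken after thinning each cell to 2000 UMIs. Genes named are the members, SOX9, INS-IGF2, 2 lists (prohormone processing, lineage regulators), the alpha-like markers, and for each member the 3 genes most like it. A gene of these lists is not reported here and is in none of the counts. Library differences past 1.5 fold were read where a gene reached 10 CPM in either library. No test between conditions was run. Interval and thinning steps were tested on simulated data. Promoter sequences came from RefSeq, where 6 of 7 genes matched (UCN3 had no entry). Alternatives changed doublet removal, UMI minimum, denominator, mitochondrial limit, clustering, thinning depth and lines.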

Additional observations from a re-analysis of the deposited data

Results flagged for a closer look

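For 3 hormone genes the ratio between the libraries (log2, DOX over no DOX) had opposite signs in alpha-like and beta-like cells. GCG was at 0.34 in alpha-like and -0.18 in beta-like cells. SST was at 0.20 in alpha-like and -0.16 in beta-like cells. PYY was at 0.11 in alpha-like and -0.78 in beta-like cells. With 1 library per condition, the difference between the classes was not tested. Beta-like cells had 334 and 295 CPM of GCG, 4541 and 4059 CPM of SST and 110.1 and 64.2 CPM of PYY. Duct-like cells of the same libraries had 555 and 342 CPM of GCG, 959.8 and 2537 CPM of SST and 85.6 and 111 CPM of PYY. Without the highest cell of each class, a setting chosen after seeing the data, the values were 323 and 284, 4483 and 4024, and 104 and 63.4 CPM in beta-like cells, against 274 and 166, 914 and 1316, and 41.1 and 50.9 CPM in duct-like cells.

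Barcodes under 1000 UMIs, which entered no comparison, also held hormone RNA. There were 585 of them in the no DOX library and 361 in the DOX library. In CPM of the UMIs outside mitochondrial genes, INS was at 103935 and 101855, which is 64.2% and 63.9% of its level over all cells. GCG was at 4373 and 7749 (88.4% and 152%), and SST at 15825 and 18243 (47.0% and 72.8%). All of these were above the levels in duct-like cells on the same scale.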

How the results depend on the processing

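No paired analysis was possible because each condition has 1 library. With doublets kept, the log2 ratios over all cells were -0.04 for INS, 0.11 for GCG, -0.38 for SST, 0.97 for PPY, -0.12 for PYY and 0.18 for IAPP. In CPM of the UMIs outside the hormone and mitochondrial genes they were -0.04 for INS, 0.02 for GCG and -0.45 for SST. Without cells over 20% mitochondrial UMIs, PYY was at -0.24. With the named classes weighted equally they were -0.18 for INS, 0.41 for GCG, -0.07 for SST, 1.22 for PPY, 0.10 for PYY, -0.10 for IAPP and 0.54 for UCN3. PPY was above 0 under each of these settings. The share of cells above the lines of both GCG and SST was 2.28% (no DOX) and 1.20% (DOX) with doublets kept, 4.82% and 4.13% with lines at the 95th percentile, and 1.10% and 0.408% with the lines multiplied by 2. It was 1.44% in the DOX library with a line at 10 UMIs of 2000. When both libraries took the higher of their lines, a setting chosen after seeing the data, the shares were 0.672% and 0.552%. Levels in duct-like cells, as a percent of the level over all cells, were 42.1% and 35.0% for INS, 62.0% and 32.2% for GCG, and 41.2% and 18.1% for SST with doublets kept. In CPM of the UMIs outside the hormone and mitochondrial genes they were 10.6% and 8.36% for INS, 9.85% and 5.98% for GCG, and 2.50% and 9.02% for SST. Without the duct-like cell with the most UMIs of the gene, a setting chosen after seeing the data, they were 12.1% and 9.66% for INS, 6.05% and 3.59% for GCG, and 2.96% and 5.78% for SST. The other 29 of these values moved by less than their counting interval. The levels of the genes in single classes were 1.35 to 1.75 times as high in CPM of the UMIs outside the hormone and mitochondrial genes. They were 0.880 to 1.40 times as high with the finer clustering, in which 1 of 2 clusters with high GCG kept the alpha-like name, and 0.959 to 1.03 times with the hormone genes kept in the clustering. No finer cluster was named beta-like, so the range of the finer clustering covers alpha-like and delta-like levels only. The cause of these shifts was not tested. The duct-like values rest on 153 and 177 cells, which limits every statement about background, and the libraries carry no replicate.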

Other observations

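In delta-like cells INS was lower in the highest bins of SST, when the cells were ranked by their SST share and divided into 4 bins of equal size. It was at 189659, 190486, 181609.6 and 170818 CPM of the remaining UMIs from the lowest bin to the highest in the no DOX library, and 167781, 163486, 152988 and 140369 in the DOX library.

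The ratio of PYY to PPY UMIs differed between the libraries in the classes looked at. It was 16.3 over all cells of the no DOX library and 7.69 over those of the DOX library, 17.0 and 8.04 in alpha-like cells, and 15.6 and 6.72 in beta-like cells. These values have no replicate.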
